A study of Mus musculus with 16 samples.

Results

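The glycoprotein Ib-IX-V complex is the platelet receptor for von Willebrand factor, and its 4 genes (Gp1ba, Gp1bb, Gp9 and Gp5) were followed together with the ligand gene Vwf in the livers of young mice. The 5 genes were chosen by name out of 19383 genes tested on the arrays, after it was known that platelet genes were higher in female offspring of exposed mothers. The female difference is therefore given as a description, with no test. For each gene the probe with the brightest liver signal stood for the gene.

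RNA was taken from random pieces of the livers of 16 C57BL/6BomTac offspring of time-mated dams. The dams had breathed filtered clean air (control) or about 42 mg/m3 of UV-Titan, a surface-coated titanium dioxide nanoparticle, for 1 h per day from gestation day 8 to gestation day 18. Females numbered 3 controls and 5 UV-Titan animals, males 4 of each, and no genetic change or direct treatment of the offspring is named. Per the series design, offspring were killed on postnatal day 2 or on postnatal days 23 to 24. The labels do not give the age or the litter of an animal, so age, litter and group cannot be told apart, and p-values measure the spread between these animals. Each animal had 1 two-colour array, on which its liver RNA competed with a common mouse reference RNA. Values are log2 ratios of liver over reference unless another scale is named, so that 1 unit is a doubling.

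Platelets are shed by megakaryocytes, which mature in bone marrow and, around birth, also in the liver. On the platelet surface the glycoprotein Ib alpha chain (Gp1ba) binds von Willebrand factor that has been caught on damaged vessel walls, the beta chain (Gp1bb) is joined to it by disulfide bonds, and glycoprotein IX (Gp9) and glycoprotein V (Gp5) complete the complex. Von Willebrand factor (Vwf) is a large multimeric protein made by endothelial cells and megakaryocytes and stored in their granules, so that, unlike the receptor genes, it is also a gene of blood vessels.

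Promoter sequence is shown for the 4 receptor genes because the deviations of their transcripts from the group means were positively correlated in each pair, 3 of 6 pairs passing the test described with those values. Each line gives the 250 bases just before the annotated transcription start, from RefSeq on build GRCm38.p6, 5′ to 3′ on the strand of the gene. Capitals mark matches on either strand to the GATA motif, searched as GATA with A or T before it and A or G after it. The table of promoters used here had an entry for 4 of the 5 genes, without Vwf.
Gp1ba (chr11:70638872-70639121, + strand): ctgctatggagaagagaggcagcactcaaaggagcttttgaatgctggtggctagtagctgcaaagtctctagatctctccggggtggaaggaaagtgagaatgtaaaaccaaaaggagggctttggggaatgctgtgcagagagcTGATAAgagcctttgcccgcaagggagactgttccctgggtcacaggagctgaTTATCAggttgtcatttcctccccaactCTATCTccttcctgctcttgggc
Gp1bb (chr16:18622404-18622653, - strand): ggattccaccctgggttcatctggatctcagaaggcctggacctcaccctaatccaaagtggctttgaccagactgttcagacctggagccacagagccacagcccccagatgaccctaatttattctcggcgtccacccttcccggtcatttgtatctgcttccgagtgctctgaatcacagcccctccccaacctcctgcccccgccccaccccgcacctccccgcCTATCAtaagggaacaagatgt
Gp5 (chr16:30310782-30311031, - strand): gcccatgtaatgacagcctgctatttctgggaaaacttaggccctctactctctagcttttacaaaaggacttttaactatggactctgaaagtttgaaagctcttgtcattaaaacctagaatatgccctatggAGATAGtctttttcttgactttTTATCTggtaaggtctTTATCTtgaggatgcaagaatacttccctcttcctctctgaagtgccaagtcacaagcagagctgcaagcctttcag
Gp9 (chr6:87777820-87778069, + strand): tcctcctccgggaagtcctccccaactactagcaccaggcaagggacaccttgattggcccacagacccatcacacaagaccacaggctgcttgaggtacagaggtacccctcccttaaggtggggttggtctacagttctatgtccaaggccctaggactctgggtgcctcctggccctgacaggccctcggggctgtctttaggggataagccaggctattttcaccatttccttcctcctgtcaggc

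GATA1 is a transcription factor of megakaryocytes and red cell precursors that binds GATA motifs. The Gp1ba window held 3 matches, beginning at positions -104, -51 and -23 before the start site. The Gp5 window also held 3, the Gp1bb window 1 at position -22, and the Gp9 window none with these letters. Of 27021 promoters of other genes, 27.1% held at least 1 match, and 6.7% held at least 2, as did 2 of the 4 receptor promoters. GGAAG with A or C before it, read by ETS factors such as FLI1, had 1 match in each of the 4 windows, against 38.9% of other promoters. Both motifs occurred in 3 of 4 windows, against 9.4% of other promoters, and no match overlapped another. The NF-E2 letters TGAGTCA were in 0 of 4 windows and in 4.4% of other promoters. A match describes the sequence and does not show binding.

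On 16 of 16 arrays the liver signal of all 5 genes was well above background. The probes, placed by the array files on build mm7, lay at chr11:70723487-70723546 for Gp1ba, chr16:18170747-18170806 for Gp1bb, chr16:29981233-29981292 for Gp5, chr6:87854749-87854808 for Gp9 and chr6:125709328-125709387 for Vwf. Which exon each probe lies in was not analysed here. A second Vwf probe at chr6:125708635-125708694 was used as a check within the same gene. Another Vwf probe, at chr6:125627345-125627404, was well above background on 0 of 16 arrays. The probe of Gp1bb, with a GC content of 80%, and the second probe of Vwf are shown because the first could meet a neighbouring transcript and the second reads Vwf at another site.
Gp1bb probe: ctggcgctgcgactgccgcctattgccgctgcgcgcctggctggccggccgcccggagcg
Vwf second probe: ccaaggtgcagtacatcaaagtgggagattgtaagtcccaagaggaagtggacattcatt

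On GRCm38.p6 the gene table places Gp1bb and Septin5, a septin gene that lies on the same strand, in an overlap of 593 bases. The other 4 genes overlapped no annotated gene. Septin5 has a probe of its own, and its group means ran from -1.58 ± 0.23 (SD, n = 4) in male controls to -1.34 ± 0.08 (SD, n = 4) in male UV-Titan animals. In females Septin5 differed by 0.13 ± 0.11 (SE) and in males by 0.24 ± 0.10 (SE). Whether transcripts of Septin5 reached the Gp1bb probe was not tested.

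The arrays had 57.7% to 67.1% of liver-channel spots and 62.7% to 69.8% of reference-channel spots well above background and 0 saturated spots. The lowest liver-channel share was that of female control replicate 35. The array weight, which falls with an array's scatter, was lowest for female controls 35 (0.422) and 25 (0.592), 2 of the 3 female controls. It was highest for male UV-Titan replicate 4 (1.95). The arrays lay on 5 slides. Median ratios of 17 hepatocyte markers were 4.76 to 5.90 on the 16 arrays, which is a check of the tissue and of the dye that carried liver RNA. Male controls 31 and 33 carried transcripts of exocrine pancreas, and male UV-Titan replicate 5 those of skeletal muscle.

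All 5 transcripts were higher in liver than in the reference, a pool of RNA from cell lines. The mean over the 4 groups was 3.49 for Gp1ba (11.2-fold), 1.26 for Gp1bb (2.39-fold), 2.42 for Gp5 (5.35-fold), 4.03 for Gp9 (16.4-fold) and 3.40 for Vwf (10.5-fold). Each passed limma's test with Benjamini-Hochberg adjustment over all genes, with adjusted p from 5.9e-23 for Vwf and 2.97e-23 for Gp9 to 1.39e-16 for Gp1bb. Of all genes tested, 50.1% were called higher in liver. The reference channel of Gp1ba was well above background on only 3 of 16 arrays, so the size of its ratio rests on a dim reference: it was 6.90 from the scanner software's processed signals. Gp5 was 3.99 on that setting, and dyes were not swapped, so dye bias is inside these ratios.

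In female livers each of the 5 genes was higher after maternal UV-Titan, by 1.39-fold to 1.53-fold, and every exposed animal lay above every control animal. Among all genes 3.17% had the same separation, and 1.05% had it in the opposite direction. The genes were chosen with this contrast known, so the count is a description.

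Gp1ba carries the binding site for von Willebrand factor. Its ratio was 3.26, 3.17 and 2.86 in female controls 35, 40 and 25, and 3.45, 3.90, 3.69, 3.87 and 3.66 in female UV-Titan animals 2, 8, 21, 10 and 16. In males it was 3.24, 3.41, 3.78 and 3.52 in controls 41, 31, 43 and 33, and 3.65, 3.61, 3.83 and 3.52 in UV-Titan animals 4, 5, 3 and 17. The female groups did not overlap, the female UV-Titan animal 2 standing nearest to the controls. The male groups overlapped, with control 43 level with the upper UV-Titan animals. The difference was 0.62 ± 0.13 (SE) in females and 0.17 ± 0.12 (SE) in males, the latter with an adjusted p of 0.957 in limma. From the scanner software's processed signals it was 0.265 ± 0.383 (SE) in females and turned to -0.184 ± 0.371 (SE) in males.

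Gp1bb is the disulfide-linked partner of Gp1ba. Female controls 35, 40 and 25 had ratios of 1.01, 0.89 and 0.80, and female UV-Titan animals 2, 8, 21, 10 and 16 had 1.58, 1.65, 1.23, 1.49 and 1.43. Male controls 41, 31, 43 and 33 had 1.10, 1.15, 1.34 and 1.16, and male UV-Titan animals 4, 5, 3 and 17 had 1.58, 1.53, 1.40 and 1.34. Of the 5 genes this one came closest to separate groups in males: control 43 matched UV-Titan animal 17, and the other 3 controls lay below all UV-Titan animals. The male difference was 0.28 ± 0.09 (SE; 95% interval 0.09 to 0.47), with an unadjusted p of 0.00684 and an adjusted p of 0.952 in limma. The female difference was 0.58 ± 0.09 (SE).

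Gp9 is needed for the complex to reach the cell surface. Its ratio was 3.88, 3.68 and 3.61 in female controls 35, 40 and 25, and 4.18, 4.35, 4.2, 4.26 and 4.07 in female UV-Titan animals 2, 8, 21, 10 and 16. Male controls 41, 31, 43 and 33 had 3.98, 4.02, 4.17 and 3.90, and male UV-Titan animals 4, 5, 3 and 17 had 4.28, 4.27, 4.19 and 3.97. In males 3 of 4 UV-Titan animals lay above all controls, and UV-Titan animal 17 lay among them. The difference was 0.49 ± 0.09 (SE) in females and 0.16 ± 0.09 (SE) in males (adjusted p = 0.952 in limma).

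Gp5 is the subunit that thrombin cleaves from the platelet surface. Female controls 35, 40 and 25 had ratios of 2.14, 2.20 and 1.80, and female UV-Titan animals 2, 8, 21, 10 and 16 had 2.73, 2.70, 2.59, 2.55 and 2.62. Male controls 41, 31, 43 and 33 had 2.22, 2.35, 2.68 and 2.25, and male UV-Titan animals 4, 5, 3 and 17 had 2.72, 2.72, 2.67 and 2.37. The 5 exposed females lay within a narrow band, whereas in males control 43 and UV-Titan animal 17 each stood away from the rest of their group. The difference was 0.60 ± 0.11 (SE) in females and 0.24 ± 0.11 (SE) in males, where limma gave an unadjusted p of 0.0438 and an adjusted p of 0.952.

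Vwf, the ligand, had ratios of 3.04, 3.22 and 3.01 in female controls 35, 40 and 25, and 3.53, 3.71, 3.50, 3.52 and 3.55 in female UV-Titan animals 2, 8, 21, 10 and 16. Male controls 41, 31, 43 and 33 had 3.32, 3.47, 3.45 and 3.35, and male UV-Titan animals 4, 5, 3 and 17 had 3.45, 3.73, 3.58 and 3.42. The exposed females lay above all female controls and, in males, 2 of 4 UV-Titan animals lay above all controls. The difference was 0.47 ± 0.08 (SE) in females and 0.15 ± 0.08 (SE) in males (adjusted p = 0.952 in limma). The second Vwf probe differed by 0.54 ± 0.09 (SE) in females and 0.25 ± 0.09 (SE) in males. On that probe every exposed male lay above every control male, the nearest being 3.17 in UV-Titan animal 17 and 3.16 in control 31. Without male UV-Titan replicate 5, the animal with muscle transcripts, the male difference of Vwf on the first probe was 0.0889, with an adjusted p of 0.999. The mean of 9 muscle genes, each set against its own mean over the 16 animals, reached 2.45 in that animal, and its part in the Vwf value was not tested.

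**Figure D1:**
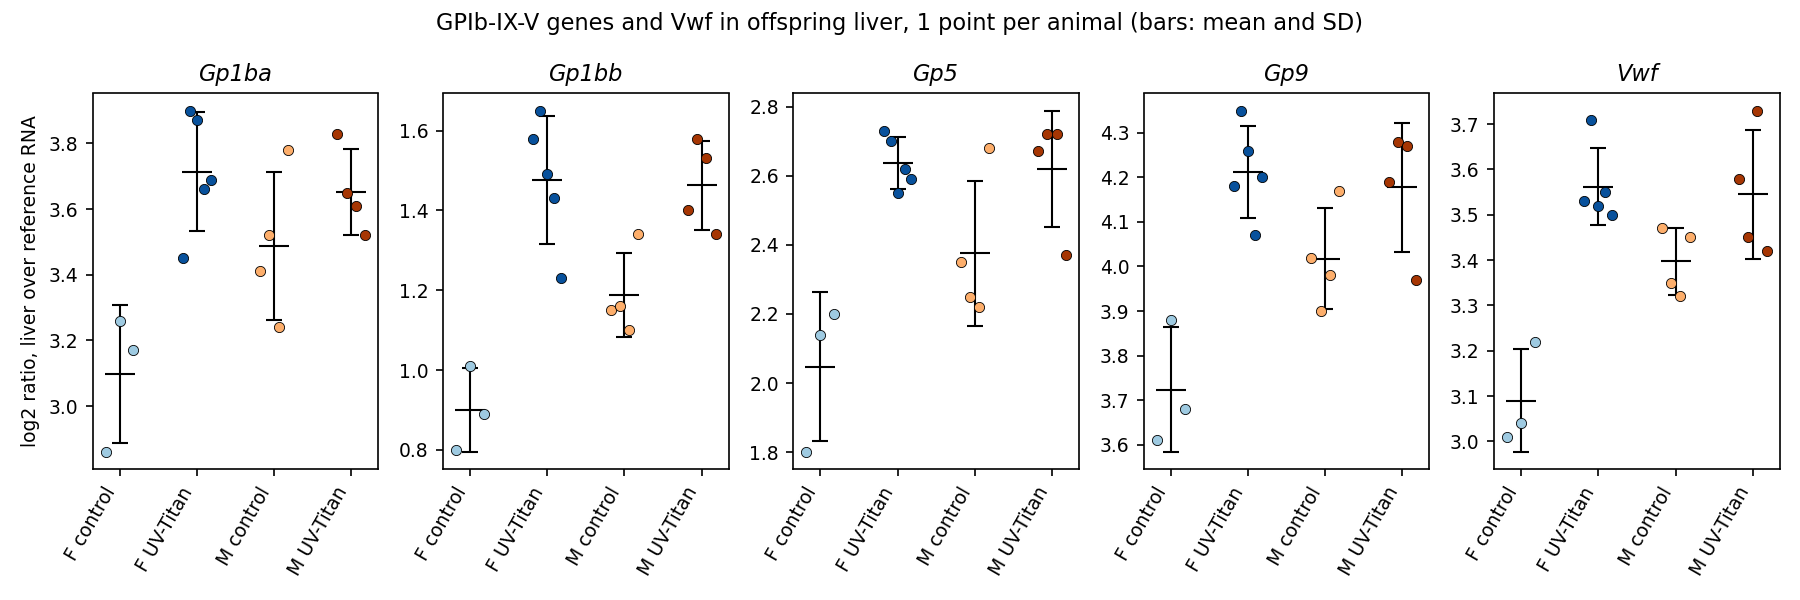
Log2 ratio of liver over reference RNA (y axis, its own range for each gene) for the 4 receptor genes and Vwf, with 1 point per animal and bars for the mean and SD of each of the 4 groups. For each gene the female controls (F control) have the lowest mean and do not overlap with the 5 exposed females (F UV-Titan), and the 4 male controls and 4 exposed males overlap.

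In males 5 of 5 genes had a higher mean after UV-Titan, by 1.11-fold to 1.21-fold, where 56.5% of all genes were higher. The 5 values share the same animals. From the processed signals 4 of 5 were higher and Gp1ba was lower. After adjustment over all genes 0 of 5 passed limma's test. No gene did: 0 of 19383 were called (0%), with 960 at an unadjusted p below 0.05 and a smallest adjusted p of 0.952. At that unadjusted level 2 of 5 genes, Gp1bb and Gp5, were higher, against 3.13% of all genes. On the probe that stood for each gene, every exposed male lay above every control male in 0 of 5 genes, against 1.91% of all genes. In 0 of 5 did every exposed male lie below, against 1.09%. The second Vwf probe did have every exposed male above every control male. By size of difference, Vwf stood at percentile 90.42 of all genes, Gp9 at 91.58, Gp1ba at 92.27, Gp5 at 97.42 and Gp1bb at 98.46. The upper ends of the 95% intervals in males were 0.31 for Vwf, 0.34 for Gp9, 0.42 for Gp1ba, 0.47 for Gp1bb and 0.48 for Gp5, so differences up to about these sizes are within the error. With median centring in place of loess the male values were smaller, from 0.000199 for Vwf and 0.0106 for Gp9 to 0.17 for Gp1bb, and the female values larger, from 0.737 for Gp1bb to 0.808 for Gp1ba.

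Without male control replicates 31 and 33, which carried pancreas transcripts, the male differences were 0.143 for Gp1ba, 0.244 for Gp1bb, 0.17 for Gp5, 0.103 for Gp9 and 0.164 for Vwf. Gp9 thus moved from 0.16 to 0.103. The mean of 12 pancreas genes, set against their means over the 16 animals, lay between -0.42 and 2.88 in the 4 male controls and between -0.36 and -0.18 in the 4 exposed males. Single animals also moved the male values. Gp1ba ranged from 0.08 without male control replicate 41 to 0.26 without male control replicate 43, and Gp5 from 0.19 to 0.35 without the same 2 animals. Whether the sexes differed in their response was not tested, since the members were chosen on the female values.

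The liver channel was also read alone, quantile-normalised between arrays, because the ratio depends on the reference as well. On that scale the female differences were 0.51 for Gp1ba, 0.54 for Gp1bb, 0.52 for Gp5, 0.45 for Gp9 and 0.41 for Vwf, and exposed and control females again did not overlap for 5 of 5 genes (1.04% of all genes). In the reference channel the female differences lay between 0.00 and 0.03. The male differences in the liver channel were 0.16 for Gp1ba, 0.17 for Gp1bb, 0.22 for Gp5, 0.19 for Gp9 and 0.26 ± 0.09 (SE) for Vwf. The groups overlapped for each of the 5 genes in males (0.872% of all genes had every exposed male above every control). For Vwf the reference channel differed in males by 0.11 ± 0.09 (SE).

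**Figure D2:**
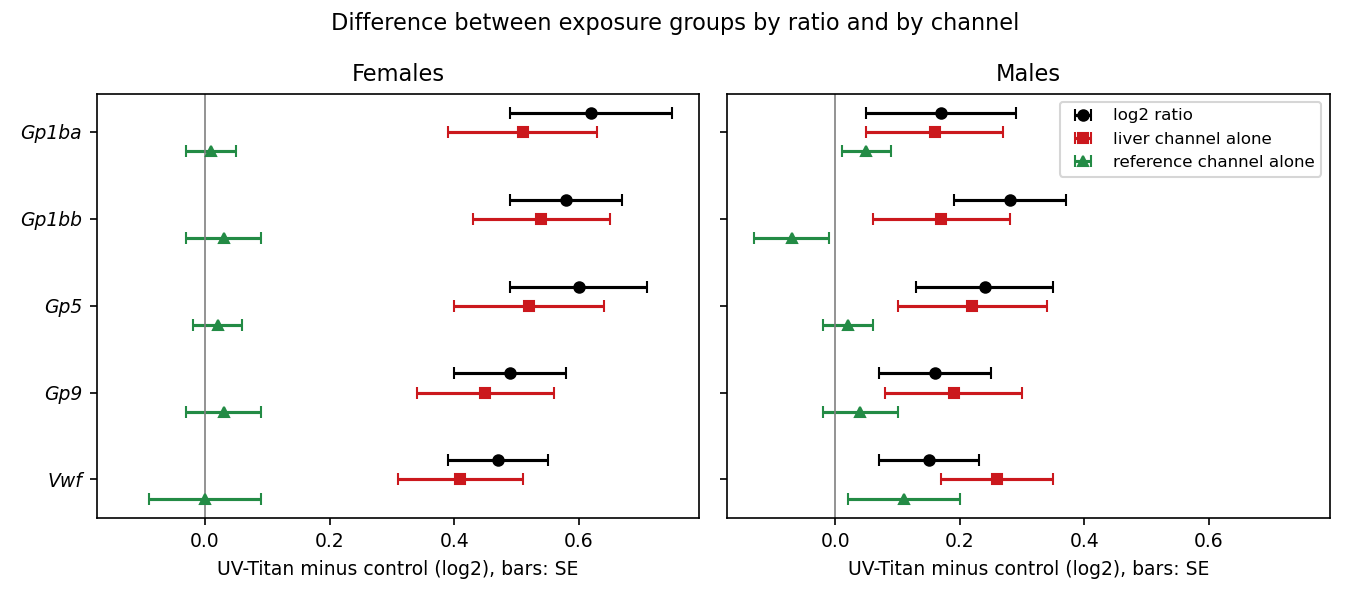
Difference between UV-Titan and control animals in log2 units (x axis, bars show SE) for each gene in females (left) and males (right), from the ratio, the liver channel alone and the reference channel alone. The female values of the ratio and the liver channel lie between 0.41 and 0.62 and those of the reference channel between 0.00 and 0.03; in males they lie between 0.15 and 0.28, and between -0.07 and 0.11 in the reference channel.

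Animals of both exposures shared slides, which gives 3 pairs per sex on the same slide. In females the within-slide differences were 0.18, 0.70 and 0.80 for Gp1ba, 0.57, 0.60 and 0.64 for Gp1bb, and 0.30, 0.58 and 0.46 for Gp9 on slides 1, 4 and 5. On the same slides they were 0.60, 0.35 and 0.83 for Gp5 and 0.49, 0.30 and 0.54 for Vwf. All 15 female values, which come from 3 pairs of animals, were above 0. The choice of the genes on the female contrast favours that sign, so the count is a description. In males the pairs of slides 1 and 2 differed by 0.13 to 0.50 over the 5 genes. On slide 3, which held control 43, the differences were 0.06 for Gp1ba, 0.06 for Gp1bb, -0.01 for Gp5, 0.02 for Gp9 and 0.13 for Vwf. With slide as a block the female differences were 0.554, 0.569, 0.535, 0.437 and 0.418, and the male differences 0.227, 0.30, 0.285, 0.191 and 0.175, for Gp1ba, Gp1bb, Gp5, Gp9 and Vwf in that order. The male adjusted p with this block was 0.858 for each.

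**Figure D3:**
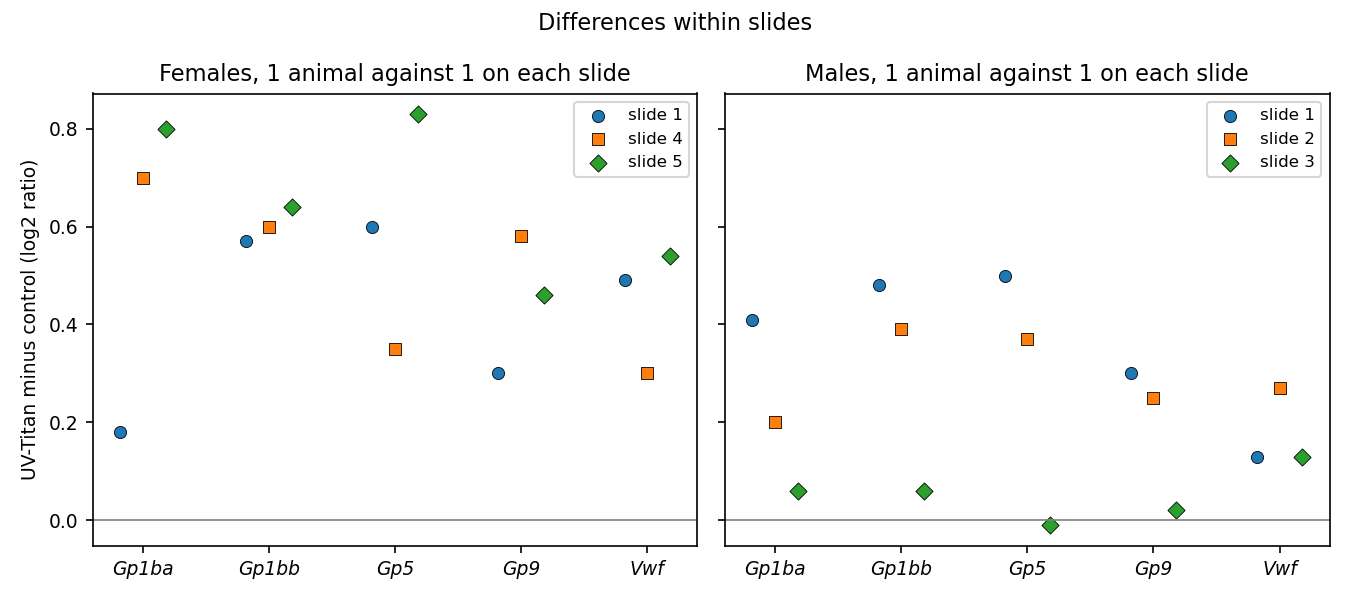
UV-Titan minus control (log2 ratio, y axis) for the pairs of animals that shared a slide, 1 point per slide and gene, females on the left (slides 1, 4 and 5) and males on the right (slides 1, 2 and 3). The female points lie between 0.18 and 0.83, and the male points of slide 3 between -0.01 and 0.13.

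The group means of the 5 genes followed 1 order: female control lowest, then male control, male UV-Titan and female UV-Titan. For Gp1bb these means were 0.90 ± 0.11 (SD, n = 3), 1.18 ± 0.11 (SD, n = 4), 1.46 ± 0.11 (SD, n = 4) and 1.48 ± 0.16 (SD, n = 5). For Vwf they were 3.09 ± 0.11 (SD, n = 3), 3.40 ± 0.07 (SD, n = 4), 3.55 ± 0.14 (SD, n = 4) and 3.56 ± 0.08 (SD, n = 5). This order was shown by 7.23% of all genes, and 34.4% had female controls lowest, a place that the choice of members on the female contrast favours. Male UV-Titan and female UV-Titan, neighbours in this order, differed by 0.01 to 0.06, less than their spread, and overlapped for 5 of 5 genes. In the liver channel alone these neighbours changed places for Gp9 (11.86 in exposed males, 11.82 in exposed females) and Vwf (12.04 and 11.97).

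Male controls lay above female controls by 0.39 ± 0.13 (SE) for Gp1ba, 0.29 ± 0.10 (SE) for Gp1bb, 0.33 ± 0.12 (SE) for Gp5, 0.29 ± 0.09 (SE) for Gp9 and 0.31 ± 0.08 (SE) for Vwf. The control groups did not overlap for 4 of 5 genes (3.09% of all genes), Gp1ba being the exception. Averaged over exposure, the male mean was higher by 0.13 to 0.16, which comes from the controls, since exposed males and females differed by -0.06 to -0.01. Both comparisons share female animals with the one that chose the members, so they are descriptions with no test for these genes. Of all genes 0.0464% were called between the sexes in limma.

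The values of the members also varied together from array to array, with 1 array per animal, within groups. After each group mean was removed, the 10 pairs of genes had Pearson's r between 0.40 and 0.72 over 16 animals, all of them positive. Pairs of receptor genes stood higher (0.44 to 0.72) than the 4 pairs with Vwf (0.40 to 0.58), a difference that was not tested. By permutation within groups and adjustment over the 10 pairs, 3 pairs passed: Gp1bb with Gp5 (r = 0.69, rho = 0.75, raw p = 0.002, adjusted p = 0.02), Gp1bb with Gp9 (r = 0.71, rho = 0.73, raw p = 0.0051, adjusted p = 0.026) and Gp5 with Gp9 (r = 0.72, rho = 0.61, raw p = 0.0095, adjusted p = 0.032). For rho the adjusted p values were 0.02, 0.024 and 0.095. The share of all gene pairs that would pass this test was not worked out.

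For each pair, the 2 animals farthest from the median of its first gene were left out, so the animals differ between pairs. This gave r = 0.83 for Gp1bb with Gp5 and 0.81 for Gp1bb with Gp9. For Gp5 with Gp9 it left out male control 43 and male UV-Titan animal 17 and gave r = 0.55 (adjusted p = 0.185 by permutation). Over all 16 animals that call thus rests on those 2. With slide means removed and all 16 animals kept, r for Gp5 with Gp9 was 0.48 (adjusted p = 0.171 by permutation). That permutation kept groups but not slides, so its p is approximate. In the 8 males alone, which the choice of members did not use, r was 0.89, 0.86 and 0.94 for these 3 pairs (adjusted p = 0.026, 0.041 and 0.026, exact permutation within groups). Male control 43 and male UV-Titan animal 17 are among these 8. In the liver channel alone 9 of 10 pairs passed, and r ran from 0.33 to 0.95. The share of all gene pairs that would pass on that scale was not worked out. Male control 43 and female UV-Titan animal 8 lay above their group means for 5 of 5 genes. Female control 25, female UV-Titan animals 16 and 21, male control 41 and male UV-Titan animal 17 lay below theirs for 5 of 5. Female control 25, female UV-Titan animal 16 and male UV-Titan animal 17 made up slide 5. This slide had a scan day of its own, as did slides 1 and 2, and slides 3 and 4 shared one. For the animals of slide 5, animal, slide and scan day cannot be told apart. In the liver channel alone they also lay below their group means for 5 of 5 genes, and the part of this in r was not tested.

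**Figure D4:**
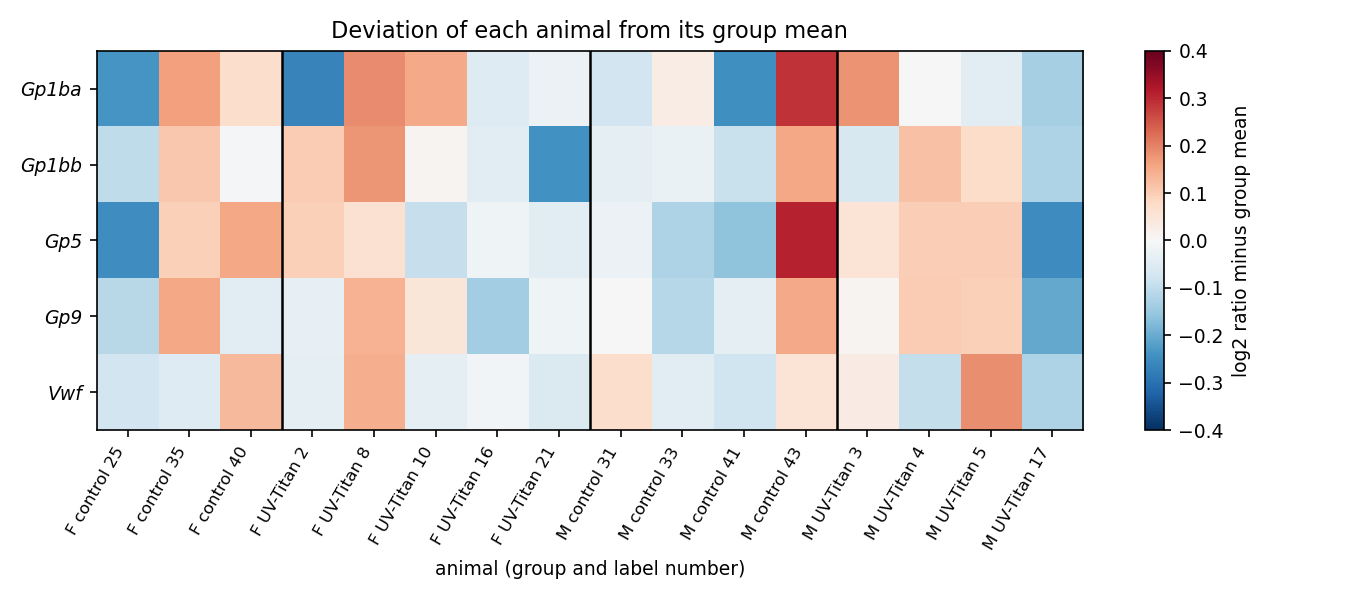
Deviation of each animal (x axis, labelled by group and animal number) from its group mean in log2 ratio, for the 4 receptor genes and Vwf (rows). Red marks a deviation above the group mean and blue below, and male control 43 and female UV-Titan 8 are red in each row while female control 25 and male UV-Titan 17 are blue.

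Each receptor gene was then set against the mean of the other 3 receptor genes, over the same 16 animals. The residual r was 0.62 for Gp1ba, 0.69 for Gp1bb, 0.77 for Gp5 and 0.81 for Gp9, at percentiles 94.7, 96.5, 99 and 99.6 of 16179 genes measured on each array. Vwf had r = 0.54 with the mean of the 4 receptor genes, at percentile 88.5. Among these genes the 95th percentile of r with the receptor mean was 0.65. Genes of other cells reached like values. For the hepatocyte genes Asgr2 and Asgr1, r with the receptor mean was 0.69 and 0.48. For the endothelial markers Stab2, Pecam1 and Cdh5 it was 0.64, 0.26 and 0.21. With Vwf, r for these genes in the same order was 0.52, 0.70, 0.62, 0.57 and 0.01. The 6 genes most like the receptor mean were Wdr11 (0.91), BC010335 (0.90), Iigp1 (0.90), Alcam (0.89), Dnase2a (0.89) and TC1485330 (0.89). The 6 most like Vwf were Cygb (0.92), Septin4 (0.90), AK050325 (0.89), Mst1 (0.88), Pbxip1 (0.88) and Dhrs3 (0.87). In the liver channel alone BC010335 had 0.24 with the receptor mean and Dhrs3 had 0.25 with Vwf. The points of such a correlation share their arrays, and each array shares 1 reference and 1 normalisation over genes.

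Other genes of megakaryocytes and platelets lay higher alongside the receptor. In females 21 of 21 measured genes had a higher mean after UV-Titan, with a median difference of 0.40, where 58.4% of all genes were higher and their median was 0.02. In males 19 of 21 were higher with a median of 0.16, where 56.5% of all genes were higher and their median was 0.015. Itga2b and Itgb3, the chains of the platelet fibrinogen receptor, differed by 0.66 ± 0.16 and 0.57 ± 0.11 (SE) in females and by 0.20 ± 0.16 and 0.18 ± 0.11 (SE) in males. The collagen receptor gene Gp6 differed by 0.45 ± 0.12 (SE) in females and 0.24 ± 0.11 (SE) in males. Pf4, a granule chemokine, differed by 0.36 ± 0.11 (SE) in females and 0.10 ± 0.11 (SE) in males. In bulk liver, a change in the number of cells of a type and a change in RNA per cell cannot be told apart.

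Megakaryocyte transcription factors had small differences. Of 13, 13 were higher in females and 11 in males, with medians of 0.09 and 0.07, or 0.05 and 0.14 in the liver channel alone. Gata1 differed by 0.21 ± 0.07 (SE) in females and 0.12 ± 0.07 (SE) in males. Its cofactor Zfpm1 differed by 0.01 ± 0.14 and 0.13 ± 0.14 (SE), Fli1 by 0.05 ± 0.10 and 0.03 ± 0.10 (SE), Nfe2 by 0.27 ± 0.12 and 0.14 ± 0.12 (SE), and Runx1 by 0.03 ± 0.09 and 0.07 ± 0.09 (SE) in females and males.

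Of the proteins that carry the signal of the receptor into the platelet, 11 of 13 genes were higher in females (median 0.19) and 10 of 13 in males (median 0.12), with medians of 0.10 and 0.11 in the liver channel alone. Flna, filamin A, which ties the tail of glycoprotein Ib alpha to actin, differed by 0.15 ± 0.05 (SE) in females and 0.18 ± 0.05 (SE) in males. For Flna every exposed male lay above every control male, which no gene of the receptor showed, yet its adjusted p was 0.952 in limma. Of the 13 genes 2 had this separation, against 1.91% of all genes. The 14-3-3 zeta gene Ywhaz differed by 0.10 ± 0.13 and -0.10 ± 0.13 (SE), and Fcer1g, the Fc receptor gamma chain, by 0.22 ± 0.09 and 0.12 ± 0.09 (SE), in females and males.

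Genes that store, carry or clear von Willebrand factor were higher in 9 of 10 cases in females (median 0.22, or 0.11 in the liver channel alone) and in 6 of 10 in males (median 0.02, or 0.06 in the liver channel). F8, the clotting factor that von Willebrand factor carries in blood, differed by 0.15 ± 0.12 (SE) in females and 0.17 ± 0.12 (SE) in males. Selp, P-selectin, which shares the endothelial storage granule with Vwf, differed by 0.10 ± 0.05 (SE) in females and 0.11 ± 0.05 (SE) in males. For Selp every exposed male lay above every control male (adjusted p = 0.952 in limma). It was the 1 gene of the 10 with this separation, against 1.91% of all genes. The scavenger receptor Stab2 differed by 0.30 ± 0.13 and 0.03 ± 0.13 (SE), and Asgr1 and Asgr2, the chains of the hepatocyte receptor that clears aged platelets and Vwf, by 0.38 ± 0.16 and 0.30 ± 0.16 (SE) in females and by -0.05 ± 0.16 and -0.10 ± 0.15 (SE) in males. The gene of the cleaving protease, Adamts13, was not among the genes tested. In the thrombopoietin axis, which drives megakaryocyte growth, 7 of 9 genes were higher in females (median 0.13, or 0.01 in the liver channel alone) and 5 of 9 in males (median 0.00, or 0.01 in the liver channel). Thpo, the hormone, differed by 0.15 ± 0.11 and 0.01 ± 0.11 (SE) in females and males.

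Markers of other cell types were also higher in exposed females. Endothelial markers, which bear on Vwf, were higher in 20 of 21 cases (median 0.21), with Pecam1 at 0.03 ± 0.09 (SE) and Cdh5 at 0.15 ± 0.13 (SE). Granulocyte markers were higher in 17 of 17 (median 0.49), macrophage markers in 14 of 15 (0.18), erythroid markers in 14 of 16 (0.17) and hepatocyte markers in 17 of 17 (0.53). In the liver channel alone the median was 0.07 for hepatocyte, -0.08 for erythroid, 0.01 for macrophage, 0.10 for endothelial and 0.38 for granulocyte markers, beside 0.51 for the 5 members and 0.32 for the other platelet genes. In males the ratio medians were 0.09 for endothelial (16 of 21 higher), 0.05 for granulocyte (11 of 17), 0.03 for macrophage (9 of 15), 0.05 for erythroid (9 of 16) and -0.20 for hepatocyte markers (3 of 17). In the male liver channel the medians were 0.08 for endothelial, 0.16 for granulocyte, 0.04 for macrophage, 0.20 for erythroid and 0.05 for hepatocyte markers, the last with its sign turned, beside 0.19 for the 5 members. Set against their means over the 16 animals, the endothelial markers ran on average from -0.33 to -0.06 in female controls and from -0.03 to 0.12 in exposed females, and the granulocyte markers from -0.56 to -0.10 and from -0.17 to 0.31. The part of these cell types in the values of the members was not tested. In each of these lists 0 genes were called in males by limma after adjustment over all genes.

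**Figure D5:**
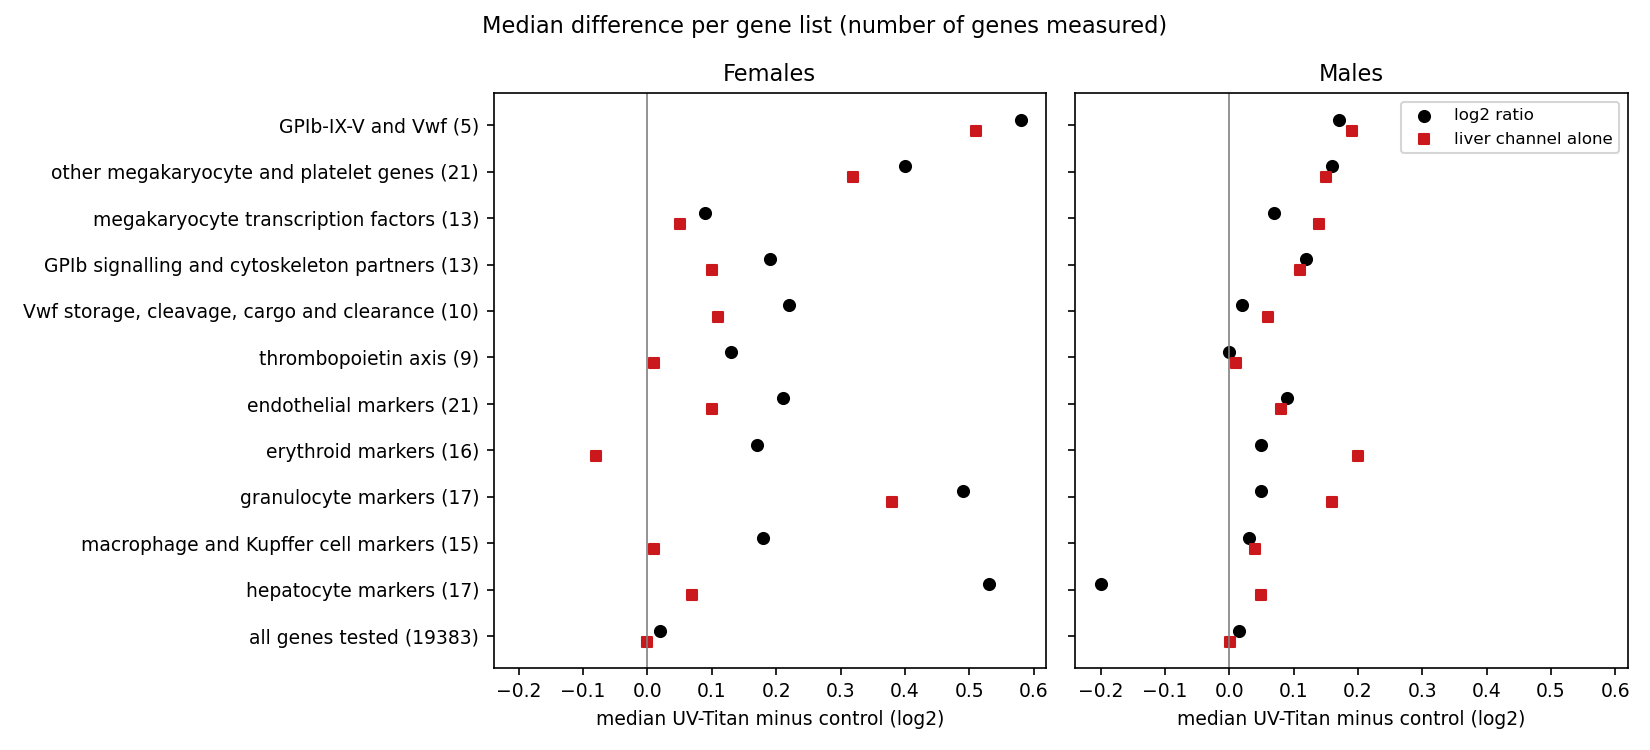
Median difference between UV-Titan and control animals in log2 units (x axis) for the 5 genes and for each list of related or cell type marker genes (number measured in brackets), females left and males right, from the ratio (circles) and the liver channel alone (squares). In females the 5 members have medians of 0.58 and 0.51, and hepatocyte markers 0.53 and 0.07, on the 2 scales.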

How the data were processed

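Liver RNA of 16 offspring was hybridised with a common reference RNA, 1 array each, using 200 ng of total RNA per the labels' protocols. The authors deposited spot intensity values from Feature Extraction 9.5.3.1 (per the labels' protocols), whose mean signals are uncorrected per the file headers, and their own log2 ratios, with a normalisation not given in the sources used here. Set against the scanner signals, that table was red over green, with column medians of -0.04495 to -0.03715. The dye named for liver is Cy3 in the label fields and Cy5 in the labelling protocol. In all, 17 hepatocyte markers were brighter in red on 16 of 16 arrays, so red was read as liver.

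Intensities were corrected with normexp (offset 50) and loess within arrays in limma 3.58.1 (R 4.3.3), control spots at weight 0, outlier spots left out. A gene needed a probe well above background on at least 3 arrays in the liver channel. Groups came from the sample titles. 1 mean per group was fitted over 16 arrays with lmFit and eBayes, Benjamini-Hochberg over 19383 genes, threshold 0.05, two-sided. Correlations used 100000 permutations within groups (Python 3.11.15, numpy 2.4.6), or all of them where fewer exist, as in males alone. The fits were tested on simulated data with independent genes and with larger differences in males than those of the members. Recovery at the sizes reported here was not tested. Spots per array were 45018, and the number of arrays limits the precision. Accessions matched a GRCm38.p6 table for 12373 genes, used for names and neighbours.

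Members, gene lists and tests were chosen with earlier results of these data known, so counts over lists support nothing by themselves. Named genes were the 5 members, 22 genes taken from the lists by name, Septin5, and the 6 genes with the highest residual r with the receptor mean and with Vwf; 1 of the named genes is not reported here. Alternatives covered background correction, normalisation, channel, source table, probe choice, slide, scan day, array weights, filters and left-out animals.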

Additional observations from a re-analysis of the deposited data

Results flagged for a closer look

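Of the 15 groups of 4 or 5 animals that the 5 genes gave, 2 held an animal far from the rest by Dixon's test, where chance gives about 1 in 20 groups. Gp5 was 2.37 in male UV-Titan replicate 17, while the other 3 exposed males had 2.67 to 2.72 (Dixon's ratio 0.869). The same animal was also the lowest of its group for Gp1ba, Gp1bb, Gp9 and Vwf. Its slide, slide 5, also held female control 25 and female UV-Titan replicate 16, which lay below their group means for the 5 genes. Vwf was 3.71 in female UV-Titan replicate 8, while the other 4 exposed females had 3.50 to 3.55 (Dixon's ratio 0.763). That animal was also the highest of its group for Gp1ba, Gp1bb and Gp9.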

How the results depend on the processing

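No paired analysis was possible because the groups share no replicate numbers, apart from the pairs on shared slides and the slide block given with the results. The male differences of Gp1bb, Gp5, Gp9 and Vwf stayed above 0 and uncalled under all 31 settings, though with median centring in place of loess Gp9 was 0.0106 and Vwf 0.000199. Many of these settings could not move a male difference and repeat its main value. They left out female animals, changed the filter on dim probes or fitted the males alone. With the scanner software's processed signals Gp1ba was -0.184 in males and 0.265 in females, and 1 gene of all tested was called in males (smallest adjusted p = 0.0263). With median centring the female differences of Gp9 and Vwf were 0.794 and 0.797. A setting chosen after seeing the data left out both female controls 35 and 25, so that female control 40 stood alone in its group. The female differences were then 0.546 for Gp1ba, 0.588 for Gp1bb, 0.444 for Gp5, 0.535 for Gp9 and 0.341 for Vwf. Also chosen after seeing the data was the sex contrast by exposure: male UV-Titan against female UV-Titan was -0.061 for Gp1ba, -0.016 for Gp1bb, -0.021 for Gp5, -0.036 for Gp9 and -0.015 for Vwf. The pairs of genes that passed were 9 in the liver channel alone and 5 with slide means removed, against 3. With slide means removed the permutation kept groups but not slides, so the 5 and the 3 cannot be compared directly. No share over all gene pairs was worked out for these counts. The cause was not tested for any of these differences between settings. Leaving out 1 animal in turn gave female differences from 0.43 to 0.70 over the 5 genes and male differences from 0.08 to 0.35, all above 0, with male adjusted p from 0.551 to 1. Array number and, for Gp1ba, the dim reference limit the precision.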
